A study of Mus musculus with 24 samples.

Results

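Kidney transcript levels of 10 circadian clock genes were read from a table of 28450 features measured in 24 libraries. The genes were the activators Arntl and Npas2 and the repressor-arm and output genes Per1, Per2, Per3, Cry1, Cry2, Nr1d1, Dbp and Tef, chosen by symbol, and each matched 1 row. These genes and the other lists were chosen with earlier results of these data known. Their counts and medians beside those of all features are therefore descriptive. The libraries came from 4 groups of 6: C57BL/6 mice, wild type or with both copies of Nlrp3 disrupted (written NLPR3-/- in the labels), each given saline or glyoxylate (Gly). Gly was injected into the peritoneum at 75 mg/kg per day in 200 µl on days 1 to 7, after which the kidneys were frozen. Gly is turned into oxalate and gives calcium oxalate crystals in the kidney, so the design asks how crystal injury changes the kidney and what the loss of Nlrp3 alters. The labels give neither the sex and age of the mice nor the hour at which kidneys were taken, and they do not say how the knockout was made. Values are FPKM (fragments per kilobase of transcript, scaled to the mapped fragments of the library), and the depth behind them is unknown. P-values measure the spread between libraries, which the labels name as separate samples without saying that each is a separate mouse.

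The circadian clock is a feedback loop in which BMAL1, the product of Arntl, pairs with CLOCK or NPAS2, binds E-box motifs and switches on the Per, Cry, Nr1d1, Dbp and Tef genes. PER and CRY proteins then block that activator pair, while REV-ERB alpha, the product of Nr1d1, represses Arntl, Npas2 and Cry1 through RORE motifs, and DBP and TEF act on D-box motifs. Activator genes and most of their targets therefore peak at opposite times of day. In the kidney the loop runs in tubule cells and is known for the daily rhythm of sodium, water and potassium excretion.

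Some libraries stood apart. Uty, Kdm5d, Eif2s3y and Ddx3y, all on the Y chromosome, were each under 0.1 FPKM in 5 of the 6 saline knockout libraries (all but library 4), while they were expressed in the other 19. Among Gly wild-type libraries, 1 and 5 had the highest shares of FPKM in ribosomal protein transcripts, 8.84% and 5.72% against at most 4.97% in the other 4. Results on the 10 clock genes that rest on these libraries are given with and without them. Since 5 of 6 saline knockout libraries lack these transcripts and no other library does, whatever sets them apart cannot be told apart from the groups in comparisons that use saline knockout: the knockout response, the interaction and the genotype difference under saline. Nlrp3 itself was below 1 FPKM in every group. Under Gly its mean was 0.129 FPKM in knockout and 0.572 in wild type (n = 6 each, two-sided exact permutation p = 0.00216, adjusted p = 0.00433 over 2 comparisons). Under saline it was 0.0961 in knockout and 0.0663 in wild type (n = 6 each, exact permutation p = 0.301), too low to check the labels, and the knockout was not the lower group. All 8 proximal tubule markers were detected, with a summed level of 3168 to 4206 FPKM in saline wild type and 1229 to 1869 in Gly wild type. In Gly wild type 6 of these 8 fell and 6 of 6 macrophage markers rose, the macrophage sum going from 25.4 to 38.5 FPKM under saline to 129.9 to 362 under Gly, with no listed marker of either type at 0 throughout a group. Other types moved as well in Gly wild type: 4 of 4 fibroblast markers rose (sum 12.6 to 19.8 under saline and 92.9 to 237 FPKM under Gly), 2 of 2 neutrophil markers rose, and 2 of 2 distal convoluted tubule (sum 126 to 180.1 and 69.9 to 116) and 2 of 2 red cell markers (sum 237 to 1595 and 47.8 to 351) fell, where 50.2% of all features rose and 13.3% fell. In kidney tissue, fewer cells of a type and less RNA per cell cannot be told apart, and the part of these cell changes in the clock gene results was not tested.

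In saline wild-type kidneys, Tef (ENSMUSG00000022389) was the most abundant of the 10 genes per length, at 61.8 ± 6.97 FPKM (SD, n = 6), followed by Dbp (ENSMUSG00000059824) at 24.2 ± 4.79. Both encode PAR bZIP transcription factors that act on D-boxes. Their ranges overlapped neither with each other nor with those of the genes below. Per1 (ENSMUSG00000020893), Nr1d1 (ENSMUSG00000020889), Per2 (ENSMUSG00000055866), Cry2 (ENSMUSG00000068742), Per3 (ENSMUSG00000028957) and Cry1 (ENSMUSG00000020038) followed in that order of mean, from 9.38 ± 2.28 down to 4.59 ± 0.769 FPKM. Each of these overlapped with its neighbour in the order. The activators were lowest, Arntl (ENSMUSG00000055116) at 1.01 ± 0.337 and Npas2 (ENSMUSG00000026077) at 0.304 ± 0.0861 FPKM, with no overlap between them. Npas2 was under 1 FPKM in all 24 libraries, so it did not pass the filter of the test (at least 1 FPKM in at least 6 libraries), and its tests come from a fit with no filter. The other 9 genes were tested.

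Promoter windows from RefSeq (GRCm38.p6, 250 bases before to 50 after an annotated start) were available for 9 of the 10 genes, 12 windows in all. They are shown for the largest fall (Cry1), the largest rise in wild type (Nr1d1), the genes that differed between genotypes under Gly (Tef, Cry2, Per3) and the activator Arntl. Motifs were searched on both strands: the E-box CACGTG, the D-boxes TTATGTAA and TTACGTAA, and the RORE consensus. Capitals mark the matches, which do not overlap one another.
Cry1 (chr10:85185005-85185304, minus strand): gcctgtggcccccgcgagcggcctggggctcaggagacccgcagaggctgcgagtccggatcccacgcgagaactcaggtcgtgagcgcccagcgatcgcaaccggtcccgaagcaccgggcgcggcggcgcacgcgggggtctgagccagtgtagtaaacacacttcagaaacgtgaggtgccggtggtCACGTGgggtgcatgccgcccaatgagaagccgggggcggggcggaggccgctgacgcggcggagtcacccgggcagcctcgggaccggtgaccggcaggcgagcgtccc
Nr1d1 (chr11:98775328-98775627, minus strand): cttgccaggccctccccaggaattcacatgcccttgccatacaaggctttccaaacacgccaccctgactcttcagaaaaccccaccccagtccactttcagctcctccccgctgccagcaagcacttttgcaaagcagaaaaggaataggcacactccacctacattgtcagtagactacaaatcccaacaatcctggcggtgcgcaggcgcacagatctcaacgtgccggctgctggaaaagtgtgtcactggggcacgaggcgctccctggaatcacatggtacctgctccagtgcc
Tef (chr15:81802423-81802722, plus strand): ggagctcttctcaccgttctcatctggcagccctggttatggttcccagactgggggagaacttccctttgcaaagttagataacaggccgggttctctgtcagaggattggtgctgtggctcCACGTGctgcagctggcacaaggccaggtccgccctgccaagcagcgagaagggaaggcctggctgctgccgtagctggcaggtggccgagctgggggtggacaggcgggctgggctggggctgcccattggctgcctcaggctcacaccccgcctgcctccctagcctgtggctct
Cry2 (chr2:92434020-92434319, minus strand): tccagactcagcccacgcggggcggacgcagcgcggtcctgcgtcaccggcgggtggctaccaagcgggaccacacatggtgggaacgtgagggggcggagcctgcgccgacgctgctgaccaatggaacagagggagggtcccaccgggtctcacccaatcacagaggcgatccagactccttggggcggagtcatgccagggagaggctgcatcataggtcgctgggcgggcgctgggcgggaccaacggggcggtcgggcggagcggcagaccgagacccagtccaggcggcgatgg
Per3 (chr4:151044616-151044915, minus strand): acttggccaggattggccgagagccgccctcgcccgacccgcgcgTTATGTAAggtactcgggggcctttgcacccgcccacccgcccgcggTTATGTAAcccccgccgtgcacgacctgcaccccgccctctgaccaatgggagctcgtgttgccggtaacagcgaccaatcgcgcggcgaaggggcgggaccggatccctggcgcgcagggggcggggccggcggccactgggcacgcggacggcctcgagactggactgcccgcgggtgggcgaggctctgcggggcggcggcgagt
Arntl (chr7:113207261-113207560, plus strand): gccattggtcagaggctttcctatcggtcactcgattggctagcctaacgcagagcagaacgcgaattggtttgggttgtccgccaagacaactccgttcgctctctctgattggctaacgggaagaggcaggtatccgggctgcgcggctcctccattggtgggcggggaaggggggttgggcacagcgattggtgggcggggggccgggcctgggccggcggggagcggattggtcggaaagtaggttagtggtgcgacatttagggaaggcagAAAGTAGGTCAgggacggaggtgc
An E-box was found in windows of Cry1, Per1 and Tef, where 7.15% of all 32851 mouse windows hold one. Tef held it in both of its windows, while the other window of Per1 held no match. Per3 held the D-box TTATGTAA at 2 places, against 0.938% of all windows with at least 1, and no member held TTACGTAA (0.119% of all windows). A RORE was found in Arntl only, 27 bases into the transcript of the window shown, against 0.384% of all windows. The other window of Arntl held no match. The windows of Nr1d1, Dbp, Cry2 and Npas2 held none of these letter strings, which says nothing of sites elsewhere.

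**Figure D1:**
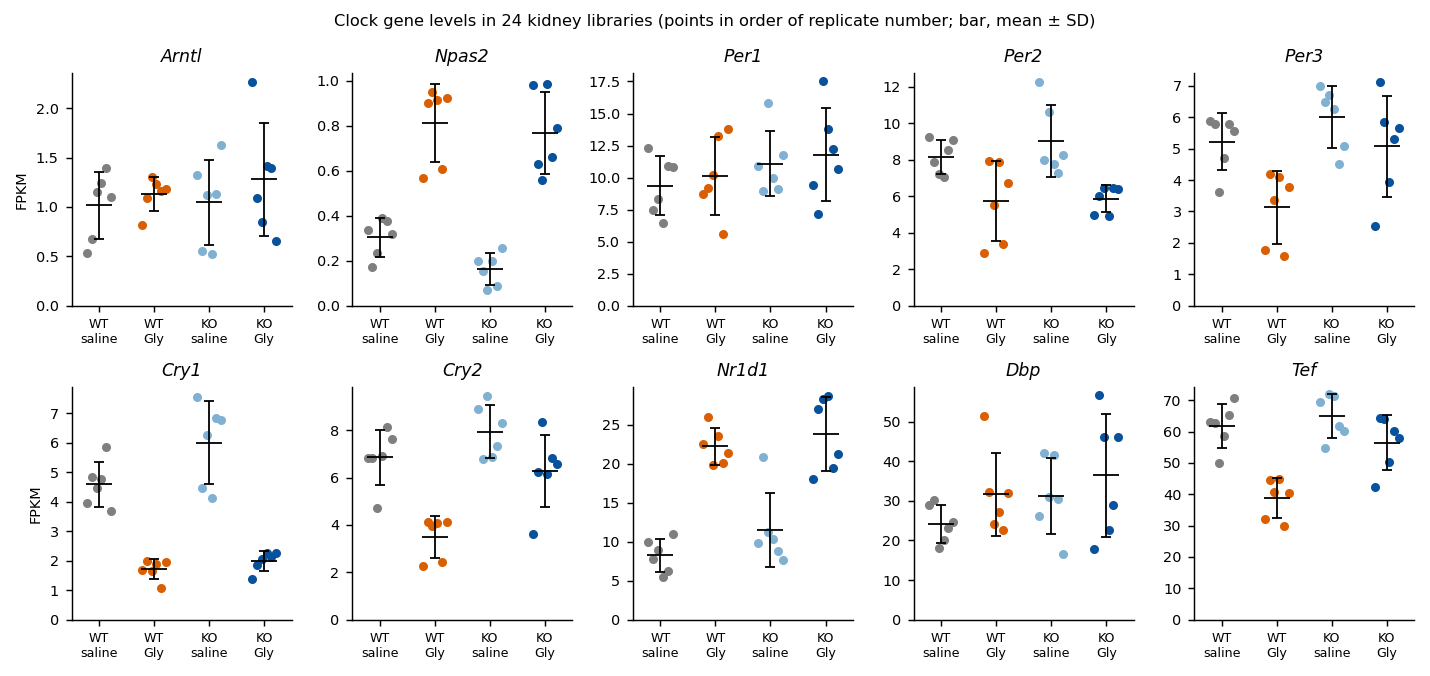
FPKM of the 10 clock genes in each library (points, placed in order of replicate number) by group, with the mean and SD as bars, on axes that start at 0. Under Gly, Cry1 lies below and Npas2 above every saline library in both genotypes, while Arntl, Per1 and Dbp overlap across all 4 groups.

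The first comparison asked how Gly changed clock genes in wild-type kidneys. Cry1, which encodes a repressor of the BMAL1 complex, was the gene with the largest fall, 2.69-fold, and Nr1d1, which encodes REV-ERB alpha, rose 2.70-fold. Cry2, Tef, Per3 and Per2 also fell, by factors of 1.96, 1.60, 1.66 and 1.43, and Npas2 rose 2.67-fold in the fit with no filter. Arntl, Per1 and Dbp did not pass the test. Of the 9 genes past the filter, 5 fell and 1 rose (limma, Benjamini-Hochberg adjusted p under 0.05 over 13020 features), where 13.3% of all features tested fell and 50.2% rose, 63.5% in all. Their median log2 difference was -0.51 beside 0.26 over all features. After median-ratio scaling, which takes this shift of all features out, the same 6 genes were called in the same directions, where 28% of all features fell and 29.2% rose.

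On the repressor side, Cry1 had a lowest, median and highest value of 3.69, 4.62 and 5.86 FPKM under saline and 1.08, 1.78 and 1.99 under Gly. The groups did not overlap (log2 difference -1.05 ± 0.13 SE, adjusted p = 1.32e-07). Cry2, its paralog in the same repressor complex, went from 4.71, 6.88 and 8.14 to 2.28, 4.03 and 4.11 FPKM, again with no overlap (-0.81 ± 0.15 SE, adjusted p = 4.58e-05). Gly libraries 1 and 5 were the lowest for Cry2, and without both the difference was -0.62 (adjusted p = 0.000629). Ranges of 38.9% of all features tested did not overlap in this comparison.

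The 3 Period genes, whose proteins pair with CRY, differed in their response. Per2 went from 7.08, 8.20 and 9.27 FPKM to 2.88, 6.14 and 7.94 (-0.51 ± 0.17 SE, adjusted p = 0.0105), and Per3 from 3.61, 5.67 and 5.89 to 1.60, 3.58 and 4.18 (-0.63 ± 0.19 SE, adjusted p = 0.00538). For both genes the groups overlapped, and Gly libraries 1 and 5 were the 2 lowest, at 2.88 and 3.40 FPKM for Per2 and 1.77 and 1.60 for Per3. Without these 2 libraries neither was called: Per2 was at -0.20 (adjusted p = 0.154) and Per3 at -0.34 (adjusted p = 0.0748). Per1, a Period gene that is also induced by glucocorticoids, was at 6.49, 9.58 and 12.3 FPKM under saline and 5.61, 9.68 and 13.8 under Gly, with a difference of 0.08 and a 95% interval of -0.33 to 0.49.

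Nr1d1 went from 5.51, 8.35 and 10.98 FPKM to 19.8, 21.9 and 26.00. Every Gly library was above every saline library (1.36 ± 0.18 SE, adjusted p = 4.65e-07). Tef, the most abundant member, went from 50.04, 62.9 and 70.8 to 29.8, 40.5 and 44.8 FPKM with no overlap (-0.67 ± 0.11 SE, adjusted p = 1.79e-05). Without Gly libraries 1 and 5 its log2 difference was -0.52 (adjusted p = 0.000196). Its relative Dbp was at 18.1, 23.99 and 30.1 under saline and 22.7, 29.6 and 51.5 under Gly, a difference of 0.34 with a 95% interval of -0.18 to 0.86 (adjusted p = 0.245). Of these 3 targets of BMAL1, Nr1d1 rose, Tef fell and Dbp did not pass the test.

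Among the activators, Npas2, which can stand in for CLOCK, went from 0.170, 0.328 and 0.391 FPKM to 0.567, 0.908 and 0.949. All 6 Gly libraries lay above all 6 saline libraries (limma with no filter, log2 difference 0.47 ± 0.0700 SE, adjusted p = 1.20e-05, where 35.3% of 28450 features were called). At these levels log2(FPKM + 1) understates the change, which was 1.18 log2 units with a pseudocount of 0.1. Arntl was at 0.535, 1.12 and 1.39 FPKM under saline and 0.819, 1.17 and 1.31 under Gly, and the groups overlapped. Its difference was 0.09 (95% interval -0.22 to 0.41, adjusted p = 0.602), and it changed sign with the scaling, -0.07 after median-ratio scaling.

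**Figure D2:**
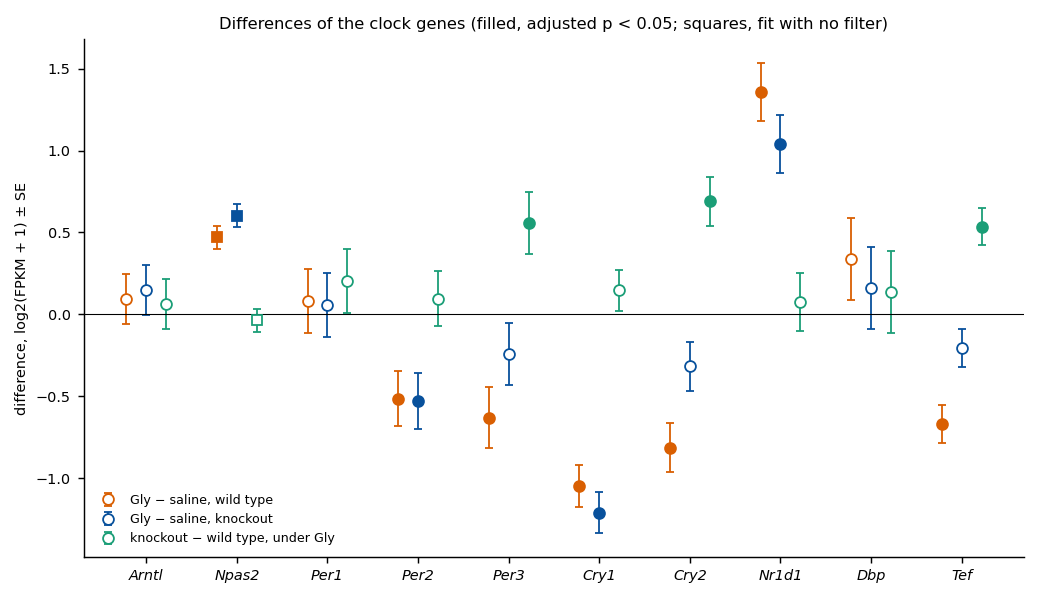
Log2 differences with SE for each gene: Gly minus saline in wild type (orange) and in knockout (blue), and knockout minus wild type under Gly (green), filled where adjusted p was under 0.05. Npas2 is drawn as squares from the fit with no filter. Cry1 and Nr1d1 moved under Gly in both genotypes, and Per3, Cry2 and Tef are the genes with a filled green point.

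The next comparison asked how Gly acted in the knockout. Cry1 fell 3.01-fold, Nr1d1 rose 2.07-fold, Per2 fell 1.54-fold, and Npas2 rose 4.74-fold in the fit with no filter. Of the 9 genes past the filter, 2 fell and 1 rose, where 5.72% of all features tested fell and 23.7% rose, 29.5% in all (limma). After median-ratio scaling Cry2 and Tef were also called lower, which makes 4 lower and 1 higher, where 12.3% of all features were lower and 12.2% higher. The median over the 9 genes was -0.21 beside 0.12 over all features.

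Cry1 was at 4.11, 6.53 and 7.56 FPKM in saline knockout and 1.38, 2.08 and 2.28 in Gly knockout, with no overlap (-1.21 ± 0.13 SE, adjusted p = 1.75e-07). Per2 went from 7.26, 8.12 and 12.3 to 4.91, 6.22 and 6.47 FPKM, also with no overlap (-0.53 ± 0.17 SE, adjusted p = 0.0208). That call was lost without saline knockout library 1, the highest of its group (-0.44, adjusted p = 0.0581). Ranges of 17.6% of all features did not overlap here.

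Nr1d1 went from 7.63, 10.1 and 20.8 to 18.05, 24.1 and 28.6 FPKM (1.04 ± 0.18 SE, adjusted p = 9.69e-05), and the overlap came from saline library 2, at 20.8 FPKM against at most 11.2 in the other 5. Npas2 went from 0.0706, 0.177 and 0.257 to 0.558, 0.723 and 0.987 FPKM with no overlap (0.60 ± 0.0700 SE, adjusted p = 5.46e-06, where 14% of features were called). The remaining genes overlapped between the groups. Their differences were -0.32 for Cry2 (adjusted p = 0.115), -0.21 for Tef (adjusted p = 0.184), -0.24 for Per3 (adjusted p = 0.357), 0.06 for Per1, 0.16 for Dbp and 0.15 for Arntl.

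This comparison includes the saline knockout libraries that lack Y-linked transcripts. Without those 5, the saline knockout mean rests on 1 library and its spread is taken from the other groups. Cry1 was then at -0.78 (adjusted p = 0.0327) and Nr1d1 at 1.10 (adjusted p = 0.0215), both called, and Per2 at -0.36 (adjusted p = 0.533). Npas2 was at 0.60 with and 0.55 without them, and adjusted p was 0.0501 without. Gly knockout can also be set against saline wild type, whose libraries all express Y-linked genes, although genotype and treatment both differ there. In that comparison Nr1d1 was 2.89-fold higher (1.43 ± 0.18 SE, adjusted p = 9.15e-07), Cry1 2.31-fold lower (-0.90 ± 0.13 SE, adjusted p = 4.95e-06) and Per2 1.39-fold lower (-0.42 ± 0.17 SE, adjusted p = 0.047), where 38.9% of all features were higher and 6.72% lower, 45.6% in all. After median-ratio scaling Cry2 and Tef were also lower, where 16.9% of all features were higher and 16.3% lower. Npas2 was 2.52-fold higher in the fit with no filter (0.43 ± 0.0700 SE, adjusted p = 0.000103, where 22.3% of features were called). The Per2 call was lost when any of 13 libraries was left out: saline wild type 1, 2, 5 or 6, Gly wild type 3, saline knockout 2 or 6, or Gly knockout 1 to 6 (adjusted p from 0.0518 to 0.0966). It was also lost with no filter (limma, adjusted p = 0.103) and with a pseudocount of 0.1 (limma, adjusted p = 0.0531). Dbp, not called with all libraries, was higher without Gly knockout library 1 (0.65, adjusted p = 0.0284). This comparison shares the saline wild-type libraries with the first comparison and the Gly knockout libraries with the second.

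Under Gly, the knockout was then set against wild type. Tef, Cry2 and Per3 were higher in knockout, by factors of 1.46, 1.80 and 1.62, and no member was lower. That is 3 of the 9 genes tested, where 8.37% of all features were higher and 21.4% lower, 29.8% in all (limma). The median over the 9 was 0.15 beside -0.06 over all features. Proximal tubule markers moved the same way, with 4 of 8 higher and none lower and a summed level of 1561 to 3343 FPKM in Gly knockout against 1229 to 1869 in Gly wild type, while 3 of 4 fibroblast markers and 6 of 6 macrophage markers were lower (macrophage sum 80.03 to 158 against 129.9 to 362 FPKM). No listed marker of these types was at 0 throughout a group, and their part in the result was not tested.

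Tef was at 42.3, 59.1 and 64.4 FPKM in Gly knockout against 29.8, 40.5 and 44.8 in Gly wild type (0.54 ± 0.11 SE, adjusted p = 0.00115). The ranges overlapped through Gly knockout library 1, at 42.3 FPKM, the other 5 lying at 50.2 or above. Cry2 showed the same layout, 3.63, 6.40 and 8.34 against 2.28, 4.03 and 4.11 FPKM (0.69 ± 0.15 SE, adjusted p = 0.00132), with library 1 at 3.63 and the other 5 at 6.14 or above, all higher than any Gly wild-type library. Without Gly wild-type libraries 1 and 5, Tef was at 0.39 (adjusted p = 0.00744) and Cry2 at 0.49 (adjusted p = 0.00981).

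Per3 was at 2.53, 5.48 and 7.12 against 1.60, 3.58 and 4.18 FPKM (0.56 ± 0.19 SE, adjusted p = 0.0271). This call was less stable. It was lost with no filter (adjusted p = 0.0665) and when only the groups compared were fitted (adjusted p = 0.1003). It was also lost without Gly wild-type libraries 1 and 5 together (0.27, adjusted p = 0.208), with either of them left out, and with any of Gly knockout libraries 2, 3, 5 and 6 left out (adjusted p from 0.0509 to 0.078). Cry1, the gene with the largest fall under Gly in each genotype, was at 1.38, 2.08 and 2.28 in Gly knockout and 1.08, 1.78 and 1.99 in Gly wild type, a difference of 0.15 (95% interval -0.11 to 0.41, adjusted p = 0.406). Nr1d1 differed by 0.08 (95% interval -0.29 to 0.44), Per2 by 0.10 and Npas2, in the fit with no filter, by -0.04 (where 13.5% of features were called), none of them called.

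The interaction tested whether the response to Gly itself differed between genotypes. Tef was the only one of the 9 genes called, its fall being 0.46 log2 units smaller in the knockout (0.46 ± 0.16 SE, adjusted p = 0.0353), where 6.28% of all features were called in this direction and 26.6% in either. Cry2 differed by 0.50 (adjusted p = 0.0827) and was called after median-ratio scaling (0.62, adjusted p = 0.0153, where 10.5% of all features were called in this direction). Without Gly wild-type libraries 1 and 5 it was at 0.30 (limma, adjusted p = 0.21). Without the 5 saline knockout libraries lacking Y-linked transcripts it was at 0.67, with 1 saline knockout library left. Npas2 differed by 0.13 in the fit with no filter (adjusted p = 0.501, where 11.5% of features were called). The Tef call held after median-ratio scaling (0.62, limma adjusted p = 0.00199) and quantile normalization (0.55, adjusted p = 0.0195). It was lost with the replicate block (adjusted p = 0.0525) and without Gly wild-type libraries 1 and 5 (0.31, adjusted p = 0.0819). It was also lost without the 5 saline knockout libraries lacking Y-linked transcripts (0.32), and when any of 11 single libraries was left out (adjusted p from 0.0505 to 0.0684). Those were saline wild type 1, 2, 5 and 6, Gly wild type 5, saline knockout 2, 5 and 6, and Gly knockout 2, 3 and 5.

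Under saline, no member was called between knockout and wild type by limma, where 10.6% of all features were called, and 2 of the 9 had an unadjusted p under 0.05. These were Cry1, at 4.11, 6.53 and 7.56 FPKM in knockout against 3.69, 4.62 and 5.86 (0.31 ± 0.13 SE, adjusted p = 0.124), and Nr1d1, at 7.63, 10.1 and 20.8 against 5.51, 8.35 and 10.98 (0.40 ± 0.18 SE, adjusted p = 0.167). The groups overlapped for both genes. Cry1 was called without saline knockout library 4, the one with Y-linked transcripts (0.39, adjusted p = 0.0273). With library 4 as the only saline knockout library, the Cry1 difference was -0.12. Npas2 was at 0.0706, 0.177 and 0.257 FPKM in knockout against 0.170, 0.328 and 0.391 in wild type, an overlap, with no call in the fit with no filter (-0.17 ± 0.0700 SE, adjusted p = 0.228, where 4.26% of features were called).

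The activator and repressor arms were compared by library as a description. For each library the mean log2(FPKM + 1) of Arntl and Npas2, and that of the 8 other genes, was taken relative to saline wild type. In Gly wild type the activator arm lay at 0.28 ± 0.12 and the other genes at -0.24 ± 0.26 (SD, n = 6). For the other genes, Gly wild-type libraries 1 and 5 were lowest, at -0.40 and -0.67, beside -0.24 to -0.02 in the rest. Neither arm was rescaled for the shift of all features, whose median log2 difference in this comparison was 0.26. The difference of the arms was 0.34 to 0.88 (0.34 to 0.64 without libraries 1 and 5), above every saline wild-type library (-0.31 to 0.31). In Gly knockout it ranged from -0.27 to 1.06 and in saline knockout from -0.53 to 0.11, ranges that overlapped. Gly knockout library 1 was the highest of all 24.

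The arms did not each move as a block. Under Gly in wild type of the activators Npas2 rose and Arntl did not pass the test, and the other arm held 5 genes that fell, 1 that rose and 2 that did not pass. Nr1d1 was higher in both genotypes while Dbp, which is switched on through the same motif, was not called in either. Cry1 was lower in both. Kidneys were taken at a single time point and the labels give no hour, so phase was not measured.

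**Figure D3:**
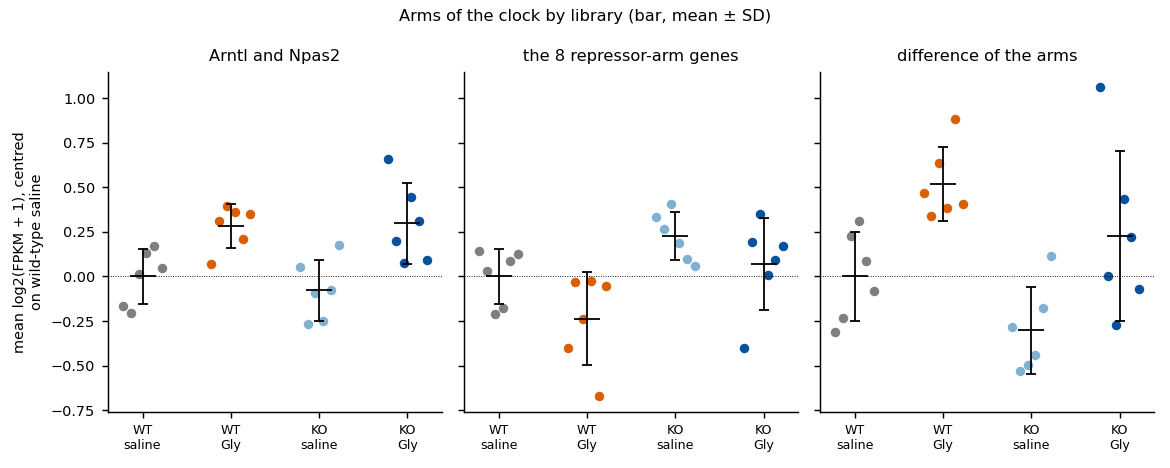
Mean log2(FPKM + 1) of Arntl and Npas2 (left), of the 8 other genes (middle) and their difference (right) in each library, each gene centred on its mean in saline wild type, with group mean and SD as bars. The 6 Gly wild-type libraries lie above all saline wild-type libraries in the right panel, and Gly knockout libraries spread from -0.27 to 1.06.

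Within groups, the tested clock genes other than Tef varied more between libraries than the median feature. Dbp had a within-group SD of 0.47 on the log2 scale, and 3.26% of the 13020 features tested were more variable, against a median SD of 0.203 over all features. For Per1, Per3, Nr1d1 and Per2 the shares of more variable features were 7.43%, 8.87%, 11.1% and 13.6%. Arntl and Cry2 followed at 22.1% and 22.5%, then Cry1 at 40.1%, while Tef lay at the median (49.9%). In Gly knockout, Dbp was at 17.8, 56.7, 46.2, 22.7, 29.02 and 46.2 FPKM in libraries 1 to 6, and Arntl at 2.27, 1.09, 0.851, 1.41, 1.40 and 0.653. The library with the most Arntl, number 1, had the least Dbp.

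Arntl and Dbp ran opposite to each other among libraries of the same group. In saline wild type, r = -0.77 (exact permutation p = 0.0861, adjusted p = 0.307 over 36 relations) and rho = -0.71 (exact permutation p = 0.136, adjusted p = 0.563). In Gly wild type, r = -0.90 (exact permutation p = 0.0347, adjusted p = 0.3 over 36 relations) and rho = -0.66 (exact permutation p = 0.175, adjusted p = 0.563). In saline knockout, r = -0.93 (exact permutation p = 0.00417, adjusted p = 0.15 over 36 relations) and rho = -0.94 (exact permutation p = 0.0167, adjusted p = 0.525). In Gly knockout, r = -0.86 (exact permutation p = 0.0208, adjusted p = 0.283 over 36 relations) and rho = -0.83 (exact permutation p = 0.0583, adjusted p = 0.525). The sign was negative in all 4 groups of 6 libraries, but no relation passed the correction over the 36 computed (Arntl with each of 9 genes in 4 groups, two-sided), of which 5 had an unadjusted p under 0.05. Without the 2 libraries farthest from the median of Arntl, r was 0.12, -0.29, -0.99 and -0.80 in the same order. In the wild-type groups little of the relation was left. Only 4 libraries with a narrower range of Arntl remained in each group. Whether the relation rests on the libraries left out therefore cannot be told. Nr1d1 was also negative against Arntl in all 4 groups (r from -0.71 to -0.32), and Npas2 was positive in all 4 (r from 0.14 to 0.73).

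**Figure D4:**
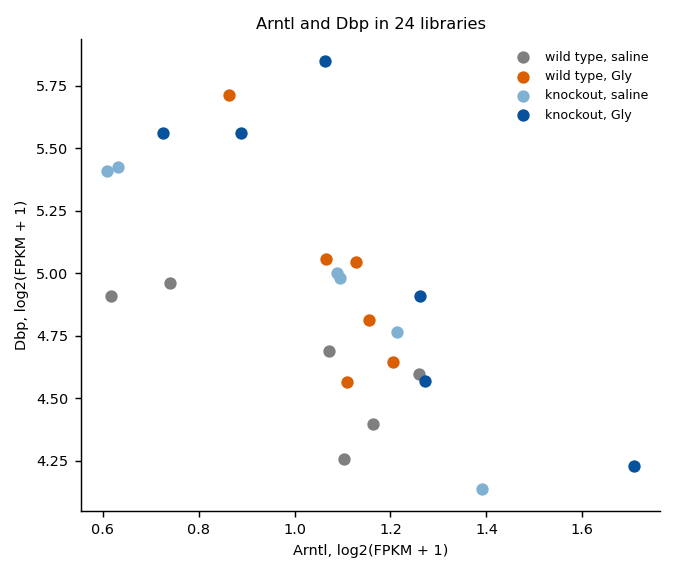
Dbp against Arntl, both as log2(FPKM + 1), in the 24 libraries, coloured by group. Within groups r was from -0.93 in saline knockout to -0.77 in saline wild type, none of them past the correction over 36 relations. Without the 2 libraries farthest from the median of Arntl, r was 0.12 in saline and -0.29 in Gly wild type. In saline and Gly knockout it was then -0.99 and -0.80.

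Over all named features tested, likeness was measured as Pearson r across the 24 libraries after centring on the 4 group means, as a description. Dbp was the gene most opposite to Arntl (r = -0.84), followed by Anxa7 (-0.79), Rexo5 (-0.74), Bcl2a1a (-0.71) and Srd5a3 (-0.71). Most like Arntl were the monocarboxylate transporter gene Slc16a1 (0.73), Nfil3 (0.71), Acnat2 (0.64), Fam184a (0.63) and Ly6f (0.63). Nfil3 encodes E4BP4, which competes with DBP and TEF at D-boxes. Most like Dbp were Rtkn (0.76), Acp1 (0.76), Umps (0.73), Dcaf15 (0.72) and Rexo5 (0.71), and most opposite after Arntl were Nfil3 (-0.67), Cdkn1a (-0.67), Acnat2 (-0.65) and Igf2bp1 (-0.62). Among the members themselves the closest pairs were Per3 with Tef (0.89), Cry2 with Tef (0.86), Per3 with Cry2 (0.82) and Per2 with Per3 (0.80). The pairs share libraries, and Gly wild-type libraries 1 and 5 and Gly knockout library 1 were low for Per3, Cry2 and Tef together.

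Other genes of the loop were taken from a list of 11, of which 8 were tested. Under Gly in wild type, Hlf, the third PAR bZIP gene, fell from a mean of 24.2 to 11.2 FPKM (-1.08 log2 units, adjusted p = 5.39e-07). Bhlhe40, whose product DEC1 binds E-boxes as a repressor, rose from 32.9 to 56.6 (0.76, adjusted p = 3.65e-05), and Nfil3 rose from 2.64 to 4.56 (0.63, adjusted p = 0.00104). Of the 8, 4 did not pass. That is 2 higher and 2 lower of 8, where 63.5% of all features were called. After median-ratio scaling 2 were higher and 3 lower, where 29.2% of all features were higher and 28% lower. Arntl2, Rorb and Bhlhe41 lay below the filter.

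In Gly knockout against saline knockout, Hlf (-0.53) and Nfil3 (-0.41) were among 3 of 8 that fell, and none rose. Of all features, 5.72% fell and 23.7% rose there. Fewer of the 8 were called without the 5 saline knockout libraries lacking Y-linked transcripts, where saline knockout rests on 1 library. The share of all features called in that fit is not given, here or for the lists below. A loss of calls in it therefore cannot be set against that of all features. Between genotypes under Gly, 2 were higher in knockout, among them Hlf (0.65), and 2 lower, Nfil3 (-0.65) and Bhlhe40 (-0.36). Of all features, 8.37% were higher and 21.4% lower there. Hlf, Nfil3 and Bhlhe40 were also called in the interaction, where 26.6% of all features were called. Nfil3 was at -1.04 (limma, adjusted p = 0.00127) and Bhlhe40 at -0.71 (adjusted p = 0.00997). These calls did not hold without the 5 libraries, where saline knockout rests on 1 library. The fall of Nfil3 in knockout (adjusted p = 0.0457) rests on those libraries: without them its difference was 0.17 (adjusted p = 0.711), the opposite sign, and with no filter it was not called (adjusted p = 0.0942). Hlf in knockout was at -0.44 without them (adjusted p = 0.385).

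Of 12 genes for kinases and turnover of clock proteins, all tested, 5 rose and 3 fell under Gly in wild type, near the 63.5% of all features called in that comparison. The median of the 12 was 0.12 beside 0.26 over all features. After median-ratio scaling 3 rose and 5 fell, where 29.2% of all features rose and 28% fell. Csnk1e and Csnk1d, the casein kinases that mark PER proteins for breakdown, rose by 1.02 and 0.51 log2 units. Fbxl21, an F-box gene acting on CRY, fell by 0.80. Timeless rose by 0.99. In knockout 2 rose and 1 fell, where 23.7% of all features rose and 5.72% fell. These calls did not hold once the saline knockout mean rested on library 4 alone, a fit whose share of all features called is not given. Between genotypes under Gly 2 were higher and 3 lower in knockout, where 8.37% of all features were higher and 21.4% lower. Among them were Prkaa2 (0.63), Usp2 (0.58), Timeless (-0.45) and Csnk1e (-0.33).

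Known output genes of E-boxes, D-boxes and ROREs numbered 12, 11 of them tested. Under Gly in wild type 3 rose and 6 fell, where 50.2% of all features rose and 13.3% fell (median -0.56 beside 0.26). The cell cycle inhibitor gene Cdkn1a rose by 2.65 log2 units. Gys2 (glycogen synthase) and Por (the electron donor of cytochrome P450 enzymes) fell by 1.14 and 0.60. In knockout 2 rose and 3 fell, where 23.7% of all features rose and 5.72% fell. Fewer were called with library 4 as the only saline knockout library. Between genotypes under Gly 5 were higher and 2 lower in knockout, where 8.37% of all features were higher and 21.4% lower. Cdkn1a was at -1.10, Nampt at 0.42 and Usp2 at 0.58.

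Kidney transport genes linked to the clock numbered 15, all tested. Under Gly in wild type 4 rose and 6 fell, where 50.2% of all features rose and 13.3% fell. The median of the 15 was -0.24 beside 0.26 over all features. After median-ratio scaling 2 rose and 8 fell, where 29.2% of all features rose and 28% fell. The genes that rose included Fxyd5, a regulator of the sodium pump (log2 difference 2.09), and Edn1, endothelin 1 (2.50). Slc12a3, the thiazide-sensitive sodium chloride cotransporter, and the kinase gene Sgk1 fell by 0.69 and 0.87 log2 units. In knockout 3 rose and 3 fell, where 23.7% of all features rose and 5.72% fell. Fewer were called with library 4 as the only saline knockout library. Between genotypes under Gly, Scnn1a, the alpha subunit of the epithelial sodium channel and a PER1 target, was 0.73 higher in knockout and Slc9a3, the proximal sodium-proton exchanger NHE3, 0.70 higher, while Fxyd5 (-0.93) and Edn1 (-1.13) were among 3 lower. The 2 higher and 3 lower there, where 8.37% of all features were higher and 21.4% lower, became 6 higher and 2 lower after median-ratio scaling. The shares of all features called after that scaling are not given for this comparison, so the scaled counts have no background beside them.

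Since Per1 answers to glucocorticoids and to stress signals, both kinds of genes were listed. Of 10 glucocorticoid-responsive genes, all tested, 2 rose and 3 fell under Gly in wild type, where 63.5% of all features were called, with log2 differences of 2.14 for the metallothionein gene Mt2, 1.14 for Mt1, -1.05 for Klf9 and -0.87 for Sgk1. The widely used marker Fkbp5 was at -0.26 in wild type, not called. In knockout it was at 0.52 and called as 1 of 3 higher genes, where 23.7% of all features were higher. That call was lost with library 4 as the only saline knockout library (0.09, adjusted p = 0.894), after median-ratio scaling (adjusted p = 0.162), after quantile normalization (adjusted p = 0.128) and with no filter (adjusted p = 0.0939). In knockout the list had fewer higher genes with library 4 alone. After median-ratio scaling it had 1 higher and 2 lower, where 12.2% of all features were higher and 12.3% lower. Of 10 immediate early genes 9 were tested and 7 rose in each genotype, where 50.2% of all features rose in wild type and 23.7% in knockout, with Junb at 2.51 and 1.46 and Atf3 at 3.18 and 1.57. In knockout 6 of 9 were higher after median-ratio scaling, where 12.2% of all features were. Fewer were called with library 4 as the only saline knockout library. Between genotypes under Gly 5 of 9 were lower in knockout and none higher, where 21.4% of all features were lower and 8.37% higher. Per1 did not pass the test in any of the comparisons, and whether these genes bear on it was not tested.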

How the data were processed

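Kidney RNA was sequenced in 24 libraries (4 groups of 6) after Illumina TruSeq preparation, per the labels' protocols. The deposited table gives FPKM for 28450 features, computed by the authors from their alignments; Bowtie 0.12.2 and the builds mm8 and mm9 are named in the submitters' processing notes, and the read counting is not given in the sources used here. FPKM holds no depth, and its sum per library was 439749 to 539018. Values were tested as log2(FPKM + 1) with limma 3.58.1 (R 4.3.3, intensity trend, 4 group means, two-sided), on the 13020 features that reached 1 FPKM in 6 or more libraries, with Benjamini-Hochberg adjustment over all of them and calls at an adjusted p under 0.05. Npas2 lay below the filter and was tested with no filter, a choice made after seeing the data. The linear model was tested on simulated data first. Single values and correlations used exact permutation tests (Python 3.11.15, scipy 1.17.1).

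All 10 clock genes were named in each comparison. From each other list up to 4 tested genes with the smallest p were named, and for Arntl and Dbp the 5 genes most alike and the 5 most opposite; some genes of the other lists are not reported here. The members and lists were chosen with earlier results of these data known. Alternatives were median-ratio scaling, quantile normalization, a pseudocount of 0.1, no filter, fits on only the groups compared, array weights, a replicate block, and leaving out libraries. No 2 libraries held identical values. Samples were grouped by their titles.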

Additional observations from a re-analysis of the deposited data

Results flagged for a closer look

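In saline knockout, Nr1d1 had 1 library far from the others: library 2 at 20.8 FPKM, with a gap to its neighbour of 0.729 of the group's range. In Gly wild type, Dbp was highest in library 1, at 51.5 FPKM, with a gap of 0.667 of the range. Both exceed Dixon's 95% critical value of 0.625 for 6 samples. They are 2 of 40 groups examined, and chance gives about 1 in 20.

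The response of Tef to Gly differed between genotypes by 0.46 log2 units (limma interaction, adjusted p = 0.0353). This call held after median-ratio scaling and quantile normalization and was lost under the other alternatives given beside it.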

How the results depend on the processing

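Of the 6 counts of called genes, the wild-type response (6 genes) and the genotype difference under Gly (3 genes) stayed within 1.5 times of their value in every alternative run, lowest without Gly wild-type libraries 1 and 5 (4 and 2 genes). After median-ratio scaling 5 genes were called in the knockout response and 5 in Gly knockout against saline wild type. Under saline 1 gene was called between genotypes with array weights (Cry1), and 0 to 1 when single libraries were left out. The interaction called 2 genes after median-ratio scaling, after quantile normalization and with array weights. It called 0 with no filter, with the replicate block, without the 5 saline knockout libraries lacking Y-linked transcripts and without Gly wild-type libraries 1 and 5, and 0 to 2 when single libraries were left out. The cause was not tested. The Nlrp3 difference under saline, knockout minus wild type, was 0.0127 to 0.0490 FPKM when single libraries were left out, the highest without saline knockout library 4 (exact permutation test, adjusted p = 0.026).

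Sign changes of single genes concerned genes not called. After median-ratio scaling the sign changed of Arntl (-0.0653) and Per1 (-0.21) for the wild-type response, Per1 (-0.0869) for the knockout response, Arntl (-0.0374) and Tef (-0.0188) for the genotype difference under saline and Per1 (0.12) and Per2 (0.13) for the interaction. After quantile normalization the sign changed of Arntl (-0.19) and Per1 (-0.21) for the wild-type response, Arntl (-0.0399) and Per1 (-0.0913) for the knockout response, Arntl (-0.0969) for the genotype difference under saline, Per1 (0.12) and Per2 (0.12) for the interaction and Arntl (-0.14) for Gly knockout against saline wild type. With array weights the sign changed of Arntl (-0.000770) for the knockout response, Arntl (-0.00927) and Per2 (-0.0848) for the genotype difference under Gly and Arntl (-0.16) and Dbp (0.23) for the interaction. With a pseudocount of 0.1 the sign changed of Per2 (0.00441) for the interaction. Without the 5 saline knockout libraries lacking Y-linked transcripts the sign changed of Dbp (-0.30) for the knockout response, Arntl (-0.38), Per2 (-0.0587) and Cry1 (-0.12) for the genotype difference under saline and Per1 (0.0886), Per2 (0.16) and Cry1 (0.26) for the interaction. Without Gly wild-type libraries 1 and 5 the sign changed of Per1 (-0.00849) and Per2 (-0.22) for the genotype difference under Gly. With no filter and quantile normalization the sign changed of Npas2 (0.0150) for the genotype difference under Gly. The correlation of Arntl and Cry1 in Gly wild type changed sign on the FPKM scale (0.00919). Leaving out single libraries changed the sign of Per1 (-0.0121 to 0.22) for the wild-type response; Per1 (-0.0608 to 0.18) and Dbp (-0.00463 to 0.34) for the knockout response; Arntl (-0.0652 to 0.0911) for the genotype difference under saline; Arntl (-0.0456 to 0.15), Per2 (-0.0477 to 0.19) and Dbp (-0.00903 to 0.32) for the genotype difference under Gly; Arntl (-0.0577 to 0.14), Per1 (-0.16 to 0.0960) and Per2 (-0.16 to 0.0811) for the interaction; Per3 (-0.16 to 0.0775) and Cry2 (-0.21 to 0.00238) for Gly knockout against saline wild type.

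Replicate numbers did not pair the libraries: deviations from group means correlated between same-numbered libraries with a median r of -0.02 (36 pairs, 7 over 0.1), and 1 of 24 libraries correlated best with its own number. The replicate block ended 2 calls, Tef in the interaction (0.46, adjusted p = 0.0525) and Per2 in Gly knockout against saline wild type (-0.42, adjusted p = 0.0656, limma), and so took the interaction from 1 gene to 0. Read depth is unknown, so the counting noise of genes near or under 1 FPKM, Arntl and Npas2, cannot be judged. The log2(FPKM + 1) scale also shrinks differences at such levels.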
